A study of Mus musculus with 5 samples.

Results

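The genes of lactose synthesis were examined in RNA-seq of sorted mouse mammary luminal cells. They are 8 genes of the 24319 in the deposited table, taken by name because they bring glucose into the cell (*Slc2a1*), make UDP-galactose (*Ugp2*, *Pgm1*, *Pgm2* and *Galk1*), carry it into the Golgi (*Slc35a2*) or join it to glucose (*Lalba* and *B4galt1*). All 8 were found, and all 8 passed the filter on low values, a mean of at least 1 FPKM (fragments corrected for the length of the transcript and the depth of the library). There were 5 libraries, 3 labelled wild type (replicates 1, 2 and 3) and 2 labelled *Brca1* knockout (replicates 4 and 5), all from mice of mixed strain. In the study's model *Cre* under the MMTV promoter, which is active in mammary epithelium, deletes floxed *Brca1*. Neither the labels nor the methods give the *Cre*, *Brca1*, *Trp53* or reporter alleles of a single bulk library. Donors in the cell preparation of the methods were females of 3 to 4 months, virgin or at a fixed day of pregnancy, without assignment to a library. From its single luminal cells the study proposes that pregnancy outweighs loss of *Brca1* or *Trp53*. Stage may differ between the bulk libraries, and its part was not tested. That preparation removed blood and endothelial cells by a depletion kit before sorting, and the text on bulk libraries names only the sort. The study describes its luminal cells as *Brca1*-deficient, so the label was used for groups, and levels were also given over all 5 libraries as 1 group. Nothing says whether libraries came from separate mice, so p-values measure only the spread between these libraries.

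Lactose is the main sugar of milk and draws water into it. It is made in the Golgi of alveolar luminal cells by lactose synthase, in which alpha-lactalbumin (*Lalba*) makes the galactosyltransferase of *B4galt1* accept free glucose. The transferase alone is found in many tissues and puts galactose on glycoproteins, whereas alpha-lactalbumin is a milk protein of the mammary gland.

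*Brca1* was at 1.30, 1.32 and 0.234 FPKM under the wild type label and at 1.20 and 1.34 FPKM under the knockout label, so its level did not separate the labels. A whole-gene level does not show a deleted exon, and it checks the labels only in part. Of the luminal markers (*Krt8*, *Krt18*, *Krt19*, *Epcam*, *Cd24a* and *Cldn3*), 6 of 6 were present in each library, the lowest value being 305 FPKM (*Cldn3*, replicate 3), with a sum of 6457 to 10412 FPKM, and the 8 basal markers summed to 13.7 to 140.3 FPKM. Replicate 3, labelled wild type, stood apart. Its 10 mature luminal markers (*Esr1*, *Pgr*, *Prlr* and others) summed to 728 FPKM against 35.2 to 68.6 FPKM elsewhere, each being highest there, while 10 of 10 proliferation genes were lowest there (sum 60.6 against 141 to 237 FPKM). Fibroblast markers were high in replicates 2 and 3 (109.5 and 86.6 FPKM against 3.42 to 12.9). Immune markers summed to 739 FPKM in replicate 2, 222 in replicate 3 and 468 in replicate 5, against 26.3 and 29.5 in the others, and most of each sum was *Cd74*. Without *Cd74* the other 6 markers summed to 43.7 FPKM in replicate 2, 16.7 in replicate 3 and 3.13 to 3.62 in replicates 1, 4 and 5. Read totals were not used here. From the spacing of low values the depth was estimated at 6170000, 12800000 and 29700000 fragments in replicates 1 to 3 and 6190000 and 21100000 in replicates 4 and 5. At these depths 59.1% to 62.8% of values lay within 0.15 of a whole fragment. A spacing fixed in advance would give 30%, but the spacing was fitted to these same values. These are therefore rough figures.

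**Figure D1:**
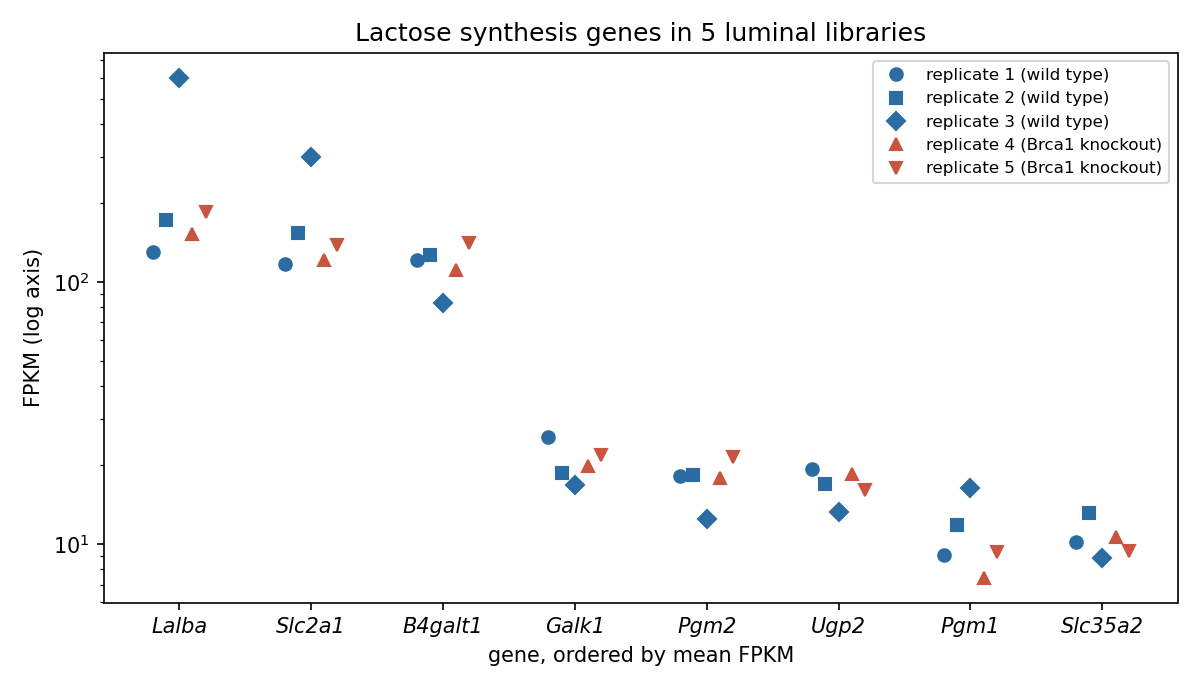
FPKM of the 8 lactose synthesis genes on a log axis, 1 point per library, with wild type labels in blue and *Brca1* knockout labels in red. *Lalba*, *Slc2a1* and *B4galt1* lie between 83.1 and 599 FPKM and the other 5 genes between 7.45 and 25.6 FPKM, and the diamond of replicate 3 is highest for *Lalba*, *Slc2a1* and *Pgm1*.

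The members fell into a high and a low tier. *Lalba* had a mean level of 7.70 ± 0.88 in log2(FPKM + 1) (SD, n = 5), *Slc2a1* 7.29 ± 0.55 and *B4galt1* 6.86 ± 0.29. The next member, *Galk1*, was at 4.41 ± 0.22, and the step from *B4galt1* down to it was 2.44 ± 0.22, present in 5 of 5 libraries and well beyond its SD. *Pgm2* (4.202 ± 0.27), *Ugp2* (4.15 ± 0.20), *Pgm1* (3.52 ± 0.40) and *Slc35a2* (3.51 ± 0.20) followed. In rank, *Lalba* was between the 98.0 and 99.4 percentile of all genes in each library, and *Slc35a2* between 76.5 and 82.1. Neighbours within a tier were often within their spread. *Slc2a1* exceeded *B4galt1* by 0.43 ± 0.80 and did so in 3 of 5 libraries, *Pgm2* exceeded *Ugp2* by 0.056 ± 0.204 in 2 of 5, and *Pgm1* exceeded *Slc35a2* by 0.0091 ± 0.479 in 1 of 5. *Lalba* exceeded *Slc2a1* in 5 of 5 libraries, by 0.41 ± 0.35, or 0.27 ± 0.13 without replicate 3. *Galk1* exceeded *Pgm2* in 5 of 5, by 0.21 ± 0.21, and *Ugp2* exceeded *Pgm1* in 4 of 5, by 0.63 ± 0.58.

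*Lalba* (ENSMUSG00000022991, chromosome 15 of mm10, 98480400 to 98482721, minus strand), the regulatory subunit of lactose synthase, measured 129.8, 172 and 599 FPKM under the wild type label (replicates 1, 2 and 3), against 153 and 185 FPKM under the *Brca1* knockout label (replicates 4 and 5). Replicate 3 was far above the other libraries, at 3.75 times their mean, and the knockout-labelled values lay within the range of the wild type-labelled ones. Without replicate 3 the 4 values were close (7.32 ± 0.22 in log2(FPKM + 1)). The fewest fragments behind a *Lalba* value, about 618 in replicate 1, give a counting error near 4.02%, small beside these differences. For each other member the fewest were 116 to 2720 fragments, with errors up to 9.27%, which cover counting only.

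*B4galt1* (ENSMUSG00000028413, chromosome 4, 40804602 to 40854005, minus strand) encodes the catalytic subunit. It was at 122, 127 and 83.1 FPKM under the wild type label and at 111 and 141 FPKM under the knockout label. Replicate 3 was the lowest library, at 0.665 of the mean of the others, and the labels overlapped. That library was also lowest for 51.8% of all genes tested. After median-of-ratios scaling *B4galt1* was at 0.830 of the others there. *B4galt1* made up 69.2% to 77.9% of the summed FPKM of the 7 *B4galt* genes. Of its relatives, *B4galt3* was next at 25.1 to 32.1 FPKM and *B4galt5* varied most, at 1.02, 4.505 and 1.95 FPKM against 0.117 and 0.341 FPKM. The knockout-labelled values of *B4galt5* lay below all of the wild type-labelled ones, without passing the test (log2 fold change -1.39, SE 0.48, limma, adjusted p = 0.92). Lysozymes are related to alpha-lactalbumin in sequence, and that of *Lyz2* is made by macrophages. *Lyz2* was at 212.5 FPKM in replicate 2 and 28.7 FPKM in replicate 3 against 1.04 to 4.53 FPKM elsewhere, and *Lyz1* at 29.0 and 8.38 against 0.280 to 0.574 FPKM. The macrophage gene *Adgre1* was at 5.64 FPKM in replicate 2 and at 0 to 0.535 FPKM elsewhere. The part of such cells was not tested. *Lyz1* and *Lyz2* are near-identical, and reads may be split between them.

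The stretches just before the start of the 2 subunit genes are shown because the genes were at similar levels in 4 libraries and apart in 1, and their starts differ in base composition. Both are RefSeq promoter windows of GRCm38.p6 on the minus strand, cut to the part before the GENCODE start, with CpG dinucleotides in capitals, chr15:98482722-98482933 for *Lalba* and chr4:40854006-40854234 for *B4galt1*.
Lalba: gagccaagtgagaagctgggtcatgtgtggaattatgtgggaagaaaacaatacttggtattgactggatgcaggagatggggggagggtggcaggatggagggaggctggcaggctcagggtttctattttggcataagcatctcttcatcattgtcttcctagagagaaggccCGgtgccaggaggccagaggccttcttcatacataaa
B4galt1: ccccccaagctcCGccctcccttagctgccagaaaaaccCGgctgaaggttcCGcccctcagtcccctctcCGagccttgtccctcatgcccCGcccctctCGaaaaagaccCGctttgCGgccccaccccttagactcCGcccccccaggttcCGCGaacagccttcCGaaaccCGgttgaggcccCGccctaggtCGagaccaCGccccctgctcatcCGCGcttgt
The *Lalba* stretch holds 1 CpG in 212 bases and that of *B4galt1* 18 in 229 bases. Over the full windows of 300 bases (250 before and 50 after the start), *Lalba* had 3 CpG and 49.0% G and C, at the 23.3 percentile of all 32851 windows for CpG. The windows of the other 7 members, 2 of them for *Ugp2*, held 14 to 32 CpG (63.7 to 90.5 percentile), against a median of 7. The motif TTCNNNGAA, the letters read by STAT factors, was searched on both strands and is its own reverse. It was found once among the members, at position -99 of *B4galt1*, and is in 8.3% of all windows. CCAAT was found in the windows of *Slc2a1*, *Ugp2*, *Pgm1* and *Pgm2* (37.4% of all windows) and TATAAA in those of *Slc2a1* and *Pgm1* (13.6%). No match says only that these letters are not in the window.

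A difference of genes within a library is almost free of the scaling between libraries. *Lalba* exceeded *B4galt1* by 0.093, 0.44 and 2.84 in log2(FPKM + 1) in replicates 1, 2 and 3 and by 0.46 and 0.39 in replicates 4 and 5. As a ratio of FPKM this was 1.07 to 1.38 in the 4 other libraries and 7.21 in replicate 3. The mean difference was 0.84 ± 1.12 (SD, n = 5), and 0.34 ± 0.17 without replicate 3. Between the labels the means were 1.12 (wild type, n = 3) and 0.42 (knockout, n = 2), which the exact permutation test did not separate (two-sided, p = 1.0, where 3 against 2 libraries allow no p below 0.2).

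**Figure D2:**
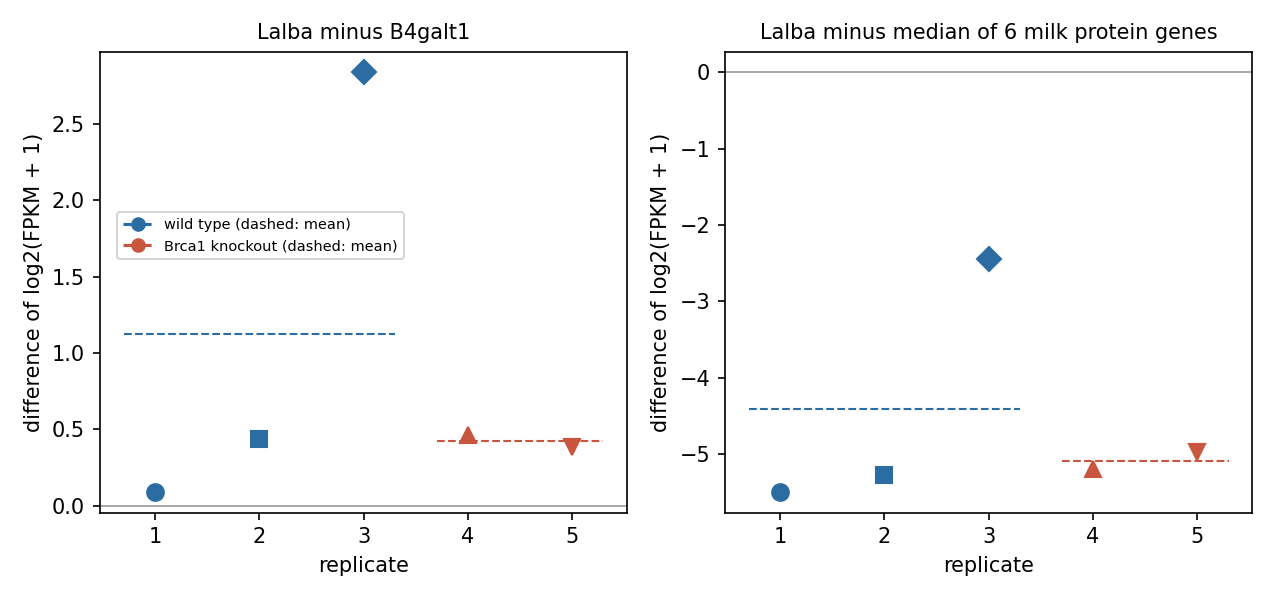
Difference in log2(FPKM + 1) between *Lalba* and *B4galt1* (left) and between *Lalba* and the median of 6 milk protein genes (right), 1 point per library, with dashed lines for the mean of each label. Replicate 3 lies at 2.84 and -2.45, and the other 4 libraries between 0.093 and 0.46 and between -5.49 and -4.98.

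*Lalba* was far below the most abundant casein transcripts in every library. The 6 reference genes were *Csn1s1*, *Csn1s2a*, *Csn1s2b*, *Csn2* and *Csn3*, which encode caseins, and *Wap*, which encodes whey acidic protein. *Csn2* was at 28982, 31978 and 10569 FPKM under the wild type label and at 25327 and 28653 FPKM under the knockout label, lowest in replicate 3. *Lalba* equalled 0.448% to 0.645% of *Csn2* in the 4 other libraries and 5.67% in replicate 3. Relative to the median of the 6 genes it was at -5.49, -5.28 and -2.45 in replicates 1, 2 and 3 and at -5.20 and -4.98 in replicates 4 and 5, on the log2 scale. *Lalba* was above *Csn1s2b* (2.99 to 11.2 FPKM) in each library. Each of the 6 was lowest in replicate 3, as 51.8% of all genes tested were, and 5 of them after median-of-ratios scaling, the exception being *Csn3*. *Wap* ranged most, from 181 FPKM in replicate 3, where it was below *Lalba*, to 2292 FPKM in replicate 2, with 282 and 794 FPKM under the knockout label. In the means, *Lalba* was at -4.41 against the median in wild type-labelled and -5.09 in knockout-labelled libraries (exact permutation test, two-sided, p = 1.0, smallest possible 0.2). In bulk samples, fewer cells of a type and less RNA per cell cannot be told apart.

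*Slc2a1* (ENSMUSG00000028645, chromosome 4, 119108711 to 119137983, plus strand) encodes the glucose transporter GLUT1. Its levels were 117, 154 and 299 FPKM under the wild type label and 121 and 138 FPKM under the knockout label. Replicate 3 was again the highest, at 2.26 times the mean of the others, and the labels overlapped. *Slc2a1* held 75.3% to 82.4% of the summed FPKM of the 8 listed glucose transporter genes in 4 libraries and 92.8% in replicate 3. *Slc2a9*, which carries urate and hexoses, was next at 13.04 to 22.4 FPKM. *Slc5a1*, the sodium-coupled glucose transporter, was at 5.12 FPKM in replicate 3 and at 11.03 to 14.0 FPKM elsewhere, so it was lowest where *Slc2a1* was highest. *Slc2a4*, the insulin-responsive transporter of fat and muscle, stayed between 0.109 and 0.881 FPKM. *Hk1*, the hexokinase that makes glucose-6-phosphate, was at 35.8, 43.2 and 67.9 FPKM under the wild type label and at 42.1 and 39.5 FPKM under the knockout label, highest in replicate 3 like *Slc2a1*. *Hk2* ranged less than *Hk1*, at 9.20 to 13.5 FPKM, and was also highest in replicate 3. *Hk3*, a hexokinase of leukocytes, reached 2.34 FPKM in replicate 2 and stayed at or under 0.315 FPKM elsewhere.

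Among the enzymes that supply UDP-galactose, *Ugp2* and *Galk1* were moderate and over all 5 libraries varied less than *Lalba*, *Slc2a1* and *B4galt1*. Without replicate 3 the SD of *Galk1* in log2(FPKM + 1) was 0.191, above those of *Slc2a1* (0.184) and *B4galt1* (0.144) and below that of *Lalba* (0.221). *Ugp2* (ENSMUSG00000001891, chromosome 11, 21321138 to 21371201, minus strand), which makes UDP-glucose, was at 19.4, 16.9 and 13.2 FPKM under the wild type label and at 18.6 and 16.1 FPKM under the knockout label. *Galk1* (ENSMUSG00000020766, chromosome 11, 116008457 to 116012719, minus strand), which phosphorylates free galactose, was at 25.6, 18.6 and 16.8 FPKM against 19.8 and 21.8 FPKM. For both genes replicate 1 was highest and replicate 3 lowest, and the labels overlapped.

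Phosphoglucomutase moves the phosphate of glucose-6-phosphate to the position from which UDP-glucose is made. The row *Pgm1* was at 9.11, 11.8 and 16.4 FPKM under the wild type label and at 7.45 and 9.33 FPKM under the knockout label. The row *Pgm2* was at 18.1, 18.4 and 12.5 FPKM in the first label and at 17.8 and 21.4 FPKM in the second. The rows thus went in opposite directions in replicate 3, the *Pgm1* row being highest and the *Pgm2* row lowest there. Their ratio was 1.31 in replicate 3 and 0.418 to 0.644 elsewhere. Their sum as deposited was within 25.3 to 30.8 FPKM in all 5, but unlike the ratio it depends on the scaling between libraries. After median-of-ratios scaling the *Pgm1* row was at 19.5 FPKM in replicate 3 against 6.99 to 11.7 elsewhere. The *Pgm2* row was then at 14.9 FPKM against 16.7 to 20.3. In mouse these names have been exchanged. RefSeq GRCm38.p6 puts *Pgm1* on chromosome 4 and *Pgm2* on chromosome 5 and lists each name as a synonym of the other gene. The table holds 1072 names that RefSeq lists only as synonyms, so it may follow older naming, and which of the 2 genes each row measured was not settled.

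Of 15 listed genes of UDP-galactose and UDP-glucose use, 14 were above the minimum. *Galt*, which moves UMP to galactose-1-phosphate, was at 5.76 to 8.17 FPKM. *Ugdh*, which draws UDP-glucose toward UDP-glucuronate, was at 8.16 FPKM in replicate 1 and 12.3 to 14.5 FPKM elsewhere. *Gyg* (glycogenin, which primes glycogen) at 3.89 FPKM, *Galm* (galactose mutarotase) at 3.06 FPKM and *Galk2* at 5.00 FPKM were lowest in replicate 3, where the other libraries held 8.36 to 11.7, 6.61 to 9.82 and 7.82 to 9.58 FPKM.

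*Slc35a2* (ENSMUSG00000031156, chromosome X, 7884028 to 7894492, plus strand) encodes the UDP-galactose transporter of the Golgi. It was at 10.2, 13.1 and 8.89 FPKM under the wild type label and at 10.7 and 9.45 FPKM under the knockout label. Replicate 2 was highest. The SD of *Slc35a2* on the log2 scale was 0.197 over all 5 libraries, beside 0.203 for *Ugp2*. Without replicate 3 it was 0.187, above those of *Ugp2* (0.116), *Pgm2* (0.116), *B4galt1* (0.144) and *Slc2a1* (0.184). It was then below those of *Galk1* (0.191), *Lalba* (0.221) and the *Pgm1* row (0.247). Of the other *Slc35* genes listed, *Slc35a1* (CMP-sialic acid) was at 12.1 to 18.5 FPKM and *Slc35a3* (UDP-N-acetylglucosamine) at 8.47 to 13.2 FPKM. *Slc35a4* was at 14.8 to 22.7 FPKM and *Slc35b1* at 28.0 to 45.1 FPKM. Lower than *Slc35a2* were *Slc35a5* (1.16 to 1.66 FPKM), *Slc35d1* (0.830 to 1.48 FPKM) and *Slc35d2* (1.00 to 1.62 FPKM). *Tmem165*, a Golgi ion transporter known to be needed for normal lactose in milk, was at 38.4, 41.4 and 14.4 FPKM against 18.6 and 28.9 FPKM. The Golgi calcium and manganese pumps *Atp2c1* (25.1 to 41.2 FPKM) and *Atp2c2* (19.4 to 42.0 FPKM) were of the same order, and the transferase of *B4galt1* needs manganese. *Atp2c1* was lowest in replicates 1 and 2, where *Atp2c2* was highest. *Cant1*, a nucleotidase that clears UDP, was at 7.41 FPKM in replicate 3 and at 11.4 to 13.1 FPKM elsewhere.

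**Figure D3:**
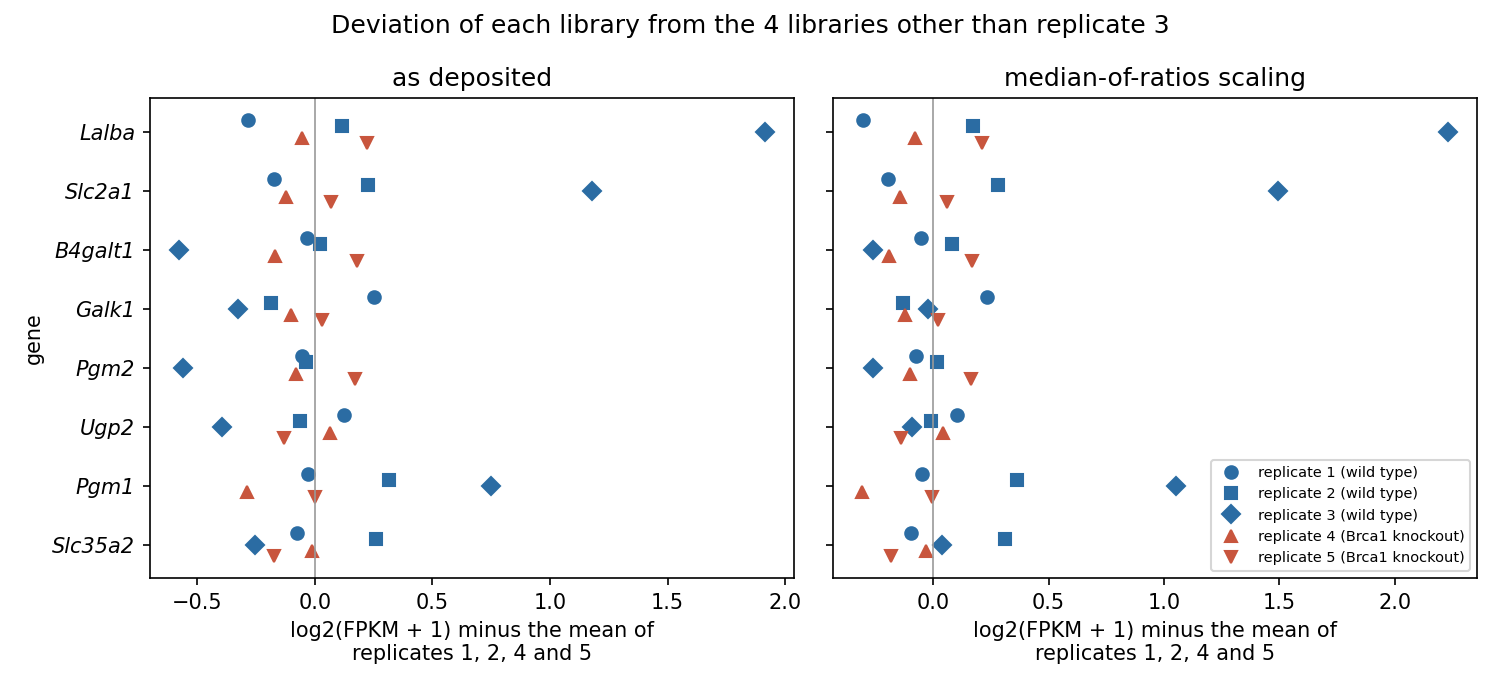
Deviation of each library in log2(FPKM + 1) from the mean of replicates 1, 2, 4 and 5 for the 8 members, with values as deposited (left) and after median-of-ratios scaling (right). In both panels replicate 3 lies right of the other points for *Lalba*, *Slc2a1* and *Pgm1* and left of them for *B4galt1* and *Pgm2*, while for *Ugp2*, *Galk1* and *Slc35a2* it is leftmost only on the left.

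Replicate 3 was highest for 3 members and lowest for 5 as deposited. Over all 11481 genes tested it was highest for 18.5% and lowest for 51.8%. Its median-of-ratios factor was -0.25 on the log2 scale, against 0.012 to 0.091 in the others. After that scaling it remained highest for *Lalba* (4.67 times the mean of the others), *Slc2a1* (2.81 times) and the *Pgm1* row (2.16 times), where 33.5% of all genes were highest. It remained lowest for *B4galt1* (0.830 of the others) and the *Pgm2* row (0.823), where 32.2% of all genes were lowest. For *Ugp2* (0.931), *Galk1* (0.978) and *Slc35a2* (1.02) it was then no longer lowest. The mature luminal and proliferation markers also set replicate 3 apart, and its estimated depth was the highest, with replicate 5 next. Their part in these values was not tested. By the gap to the nearest library divided by the range of all 5, 1 of 8 members (*Lalba*, ratio 0.770) had a library apart at the limit of 0.71, which 13.0% of all genes exceeded. Replicate 3 is 1 library of its label, and no test compares it with the rest.

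Between the labels no member passed the test. Of 8 members, 0 rose and 0 fell by limma at an adjusted p of 0.05 (adjusted p from 0.92 to 0.98), where 0.0% of the 11481 genes were called in either direction and 372 (3.24%) had an unadjusted p below 0.05, none of them members. Limma without a trend also called 0 genes. The widest estimates were those of *Lalba* (log2 fold change of knockout over wild type -0.50, SE 0.68, 95% interval -2.20 to 1.20), the *Pgm1* row (-0.49, SE 0.28, -1.19 to 0.22) and *Slc2a1* (-0.44, SE 0.42, -1.50 to 0.63). The narrowest intervals were those of *Slc35a2* (-0.62 to 0.48) and *Ugp2* (-0.48 to 0.63), which still allow changes of either sign. Without replicate 3, *Lalba* was at 0.17 (SE 0.20, adjusted p = 0.82, limma), *Slc2a1* at -0.052 (SE 0.19, adjusted p = 0.95) and the *Pgm1* row at -0.29 (SE 0.20, adjusted p = 0.74), so that for *Lalba* the sign turned. In 0 of 8 members did the libraries of the labels not overlap, where 17.5% of all genes had both knockout-labelled libraries above and 5.77% below the others. The median log2 fold change of the members was -0.0084, against 0.11 over all genes tested. Summed mature luminal markers ranged from 63.7 to 728 FPKM under the wild type label and from 35.2 to 45.7 FPKM under the knockout label, and summed proliferation genes from 60.6 to 168 FPKM and from 186 to 237 FPKM. The sums did not overlap between the labels, and of the single genes 6 of 10 mature luminal markers and 8 of 10 proliferation genes did not. Their part in the estimates of the members was not tested.

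**Figure D4:**
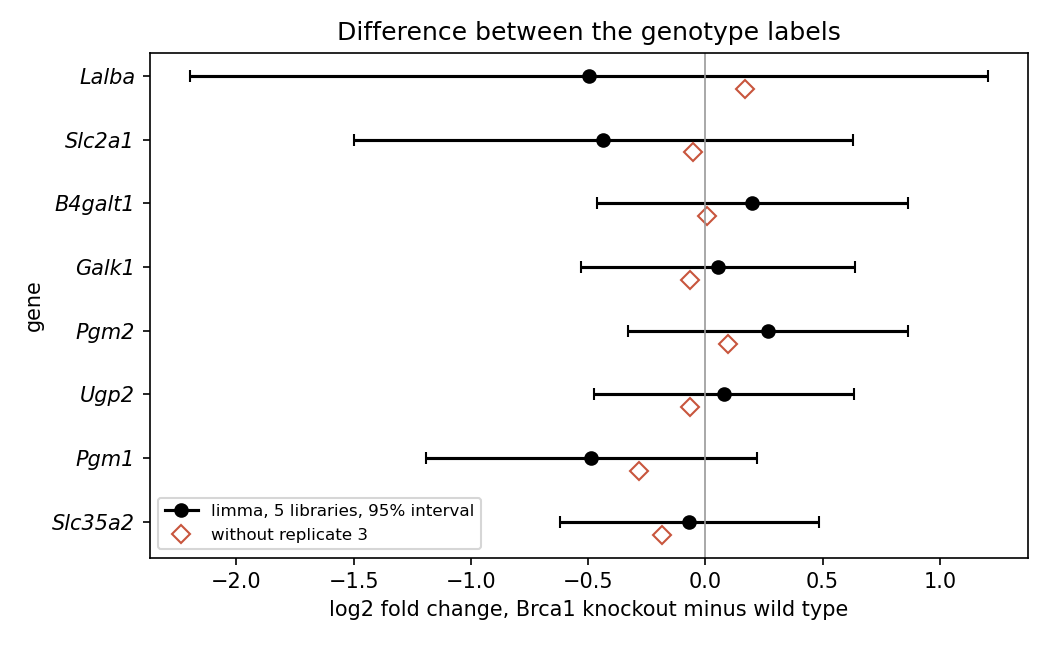
Log2 fold change of each member between the labels (knockout minus wild type) from limma over 5 libraries with its 95% interval (black), and the estimate without replicate 3 (open diamonds). All 8 intervals include 0, and without replicate 3 the estimates lie between -0.29 and 0.17.

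Of the 50 genes of the 4 pathway lists (glucose entry, UDP-galactose supply, Golgi transport, and lactose synthase with relatives, members included), 42 were tested, and 0 passed in either direction. The median log2 fold change was 0.075, against 0.11 over all genes. In 8 of the 42 both knockout-labelled libraries were above all wild type-labelled ones (*Slc2a8*, *Slc2a9*, *Galk2*, *Pgm3*, *Pgm2l1*, *Slc35a3*, *Entpd4* and *Cant1*), and in 1, *B4galt5*, they were below, beside the 17.5% and 5.77% of all genes given above. *Slc2a9* had the largest estimate among the 8 (log2 fold change 0.50, SE 0.23, adjusted p = 0.92 by limma).

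The genes whose centred profile over the 5 libraries lay nearest to that of *Lalba*, by root mean square difference in log2(FPKM + 1), were *Eppk1* (0.062), *Mfge8* (0.092), *Wnk2* (0.11), *Cp* (0.11) and *Prkce* (0.12). *Mfge8*, which encodes lactadherin of the milk fat globule, was at 516, 638 and 2195 FPKM against 506 and 631 FPKM. *Cp*, which encodes ceruloplasmin, was at 83.7, 122 and 358 FPKM against 101 and 139 FPKM. Nearest to *B4galt1* were *Marveld3* (0.019), *Pigq* (0.023), *Raver1* (0.027), *Pcca* (0.040) and *Yap1* (0.040), with *Marveld3*, a tight junction protein gene, at 23.4, 24.0 and 16.1 FPKM against 21.0 and 27.6 FPKM. With 5 libraries, of which 1 stands apart, these are descriptions of the profiles, which share that library.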

How the data were processed

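RNA-seq libraries of sorted luminal cells (DAPI-, CD24 high, CD29 low) were made with a kit that does not mark strand. The authors aligned reads to mm10 with TopHat (2.1.1 in the methods, TopHat2 2.0.13 in the submitters' processing notes, which also name Trimmomatic 0.35) and deposited FPKM values from Cufflinks 2.2.1. The annotation is not given in the sources used here. Of 24346 rows, 27 carried a date in place of a gene name and were left out. In GENCODE M21, exons of *Slc2a1*, *Ugp2* and *Pgm1* overlap genes of the opposite strand (*Gm12868*, *Gm12043* and *Itgb3bp*), whose reads cannot be told apart. Overlaps, fragments and promoters were assigned by symbol. For the *Pgm1* and *Pgm2* rows they may therefore belong to the other gene.

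FPKM were analysed as log2(FPKM + 1), which understates changes of low genes. Labels were compared with limma 3.58.1 (trend) in R 4.3.3, keeping the 11481 genes that averaged 1 FPKM or more, with Benjamini-Hochberg adjustment over all of them, and single values with an exact permutation test. The fit and the depth estimate (from genes with 1 transcript longer than 2000 bases) were tested on simulated data. Alternatives were a pseudocount of 0.1, 2 scalings, other filters, no trend and each replicate left out. Positions are GENCODE M21 (GRCm38, which is mm10), fragments used each gene's longest coding transcript, and 8 of 8 members matched a promoter by symbol. Python 3.11.15, numpy 2.4.6, pandas 2.3.3, scipy 1.17.1 and matplotlib 3.10.9 were used. Named genes were the members, from each pathway list the 3 highest in mean and the 3 widest in range, the milk protein genes and the 5 nearest profiles of *Lalba* and *B4galt1*. *Galt*, *Slc2a4*, *Slc35a1*, *Slc35a3* and other genes outside this rule were chosen after their values were seen. A gene that this rule names is not reported here. The members and lists were chosen with earlier results of these data known.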

Additional observations from a re-analysis of the deposited data

Results flagged for a closer look

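The 5 libraries were taken as 1 group, and a library was singled out where its gap to the nearest other, divided by the range, exceeded 0.71. This was applied to 42 pathway genes, 2 differences and 4 list medians, and 7 genes (16.7% of the 42), both differences and 1 median passed. Chance gives about 5%, and 13.0% of all genes tested passed. Both differences reuse the *Lalba* values. In replicate 3, labelled wild type, *Lalba* was high (599 FPKM against 129.8 to 184.8 in the others), and so were the differences in log2(FPKM + 1) of *Lalba* to *B4galt1* (2.84 against 0.093 to 0.46) and of *Lalba* to the median of the milk protein genes (-2.45 against -5.49 to -4.98). *Slc5a1* (5.12 against 11.03 to 14.0 FPKM) and *Cant1* (7.41 against 11.4 to 13.1 FPKM) were low there. So was the median of the tested genes of UDP-galactose supply as deposited (2.87 against 3.30 to 3.42 in log2(FPKM + 1)). Of these 14 genes, 8 were lowest there as deposited and 5 after median-of-ratios scaling, beside 51.8% and 32.2% of all genes. The median after that scaling was not computed. In replicate 2, also labelled wild type, *Galt* (5.76 against 7.59 to 8.17 FPKM), *Slc35d1* (0.830 against 1.32 to 1.48 FPKM) and *Entpd4* (3.23 against 4.74 to 5.31 FPKM) were low, and in replicate 1 *Ugdh* was low (8.16 against 12.3 to 14.5 FPKM). *Slc2a1* in replicate 3 reached a ratio of 0.704, just under the limit, and 0.719 after median-of-ratios scaling.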

How the results depend on the processing

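No paired analysis was possible because the labels share no replicate number. The members and pathway genes past the threshold between the labels remained at 0 under all 11 alternatives each. Leaving out a replicate moved the count over all genes from 0 to between 0 and 18 (2 without replicate 1, 18 without replicate 4 and 4 without replicate 5, none a member), the members whose labels do not overlap from 0 to between 0 and 3 (3 without replicate 1, 2 without replicate 4 and 1 without replicate 5), the median level of the members to between 4.31 and 4.42 (4.36 with all 5), *Lalba* against *B4galt1* to between 0.34 and 1.03, and *Lalba* against the milk protein genes to between -5.24 and -4.48. Without replicate 4 or 5 the lone knockout-labelled library was assumed to vary like the others. Quantile normalization gave 1 member without overlap (the *Pgm1* row). The 17.5% and 5.77% of all genes without overlap hold for all 5 libraries as deposited. Under these other settings the share of all genes was not computed, and fewer libraries make non-overlap easier to reach. The counts of members are therefore not read as a separation of the labels. Against *Csn2* alone, *Lalba* was at -6.82. Median-of-ratios scaling gave 2 members with a library apart in place of 1 (*Lalba* and *Slc2a1*). The members lowest in replicate 3, a count added after the data were seen, were 5 as deposited, 2 under median-of-ratios and 3 under quantile normalization. The uncalled fold changes that turned sign were *Lalba* without replicate 3 (0.17, range without 1 replicate -0.93 to 0.17), *Ugp2* under median-of-ratios (-0.048) and quantile normalization (-0.012) and without replicates 3 and 4 (-0.064 and -0.019, range to 0.20), *Galk1* under median-of-ratios (-0.075) and quantile normalization (-0.032) and without replicates 3 and 5 (-0.068 and -0.013, range to 0.22), and *Slc35a2* without replicates 2 and 5 (0.073 and 0.011, range from -0.18). The cause of these moves was not tested. With 3 libraries against 2, changes of the size seen here cannot be told from none.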
